A study of Mus musculus with 4 samples.

Results

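The microRNAs (miRNAs) miR-21a, miR-146a, miR-146b, miR-155, miR-132 and miR-147, all known from inflammatory signalling, were taken by name from lists of small RNA reads in mouse whole blood. In the lists these are mmu-mir-21a, mmu-mir-146a, mmu-mir-146b, mmu-mir-155, mmu-mir-132 and mmu-mir-147. All 6 names were found among the 374 annotated miRNA loci of the lists, 5 of them in all 4 libraries and miR-147 in 1. The blood came from Balb/c mice, an inbred laboratory strain, at 180 days of age. The control group, with 2 libraries, had feed and water without added cadmium as far as the labels say, and the cadmium group, also with 2 libraries, was given cadmium, a toxic metal, in its drinking water. The labels give neither the dose, nor the length of exposure, nor the number of animals behind each library, so each p-value rests on library-to-library spread alone, and that spread may be technical.

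A miRNA is cut from a hairpin transcript and guides silencing of messenger RNAs that pair with its seed, the bases near its 5′ end. Signals from Toll-like receptors and cytokines act through the transcription factor NF-kappaB to raise miR-146a and miR-155. miR-146 restrains the same pathway by targeting its adaptors Traf6 and Irak1, while miR-155 targets brakes such as Socs1. miR-146 and miR-155 are best known from white blood cells, and miR-21 is abundant in many cell types.

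The mature sequences are shown because the members fall into seed groups. They are RefSeq's (GRCm38.p6), written 5′ to 3′ with the seed, bases 2 to 8, in capitals. For miR-147 the listed window was cut from the RefSeq hairpin.
miR-21a: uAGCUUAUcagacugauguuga
miR-146a: uGAGAACUgaauuccauggguu
miR-146b: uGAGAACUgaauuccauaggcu
miR-155: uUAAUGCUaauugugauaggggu
miR-132: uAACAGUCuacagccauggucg
miR-212: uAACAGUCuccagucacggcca
miR-147: gUGUGCGGaaaugcuucugc

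miR-146a and miR-146b share the seed GAGAACU and are identical over their first 17 bases. Counted from the 5′ end, they differ by G18A and U21C, with the miR-146a base first, so a read that stops before base 18 fits both. miR-132 and its cluster neighbour miR-212 share the seed AACAGUC and differ at 5 of 22 bases, the first being A10C. Among 365 annotated loci with a usable deposited sequence, each of these seeds was found in only those 2 loci, and no other locus carried the seed of miR-21a or miR-155. The 5′ end of the counted window lay at the RefSeq 5′ end in all 4 libraries for miR-21a, miR-146a, miR-146b, miR-155, miR-132 and miR-212, so the same seed was counted throughout. The 3′ end was the same in all libraries for 5 of these 6, whereas the miR-146a window was 21 bases long in cadmium 2 and 22 in the other libraries.

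The hairpins of the miR-146 pair show where the shared part ends, with the mature miRNA in capitals.
miR-146a hairpin (GRCm38.p6, chr11:43374397-43374461, minus strand): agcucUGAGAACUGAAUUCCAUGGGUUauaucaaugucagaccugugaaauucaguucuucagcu
miR-146b hairpin (GRCm38.p6, chr19:46342762-46342870, plus strand): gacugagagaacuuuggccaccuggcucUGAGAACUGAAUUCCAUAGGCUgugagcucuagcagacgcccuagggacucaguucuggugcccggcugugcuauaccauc

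In both hairpins the counted product was the 5′ arm, and no second row of any list, annotated or predicted, lay inside the hairpin of any of the 6 miRNAs or of miR-212. In the GENCODE M21 annotation of the mm10 build, miR-21a (chr11:86584119-86584141, minus strand) lies in the 3′ UTR of Vmp1, the gene of a membrane protein of autophagy. miR-146a (chr11:43374435-43374456, minus strand) lies in no other annotated gene, and miR-146b (chr19:46342790-46342812, plus strand) in an intron of Mfsd13a. miR-155 (chr16:84714143-84714164, plus strand) is part of an exon of Mir155hg, a long noncoding RNA gene. miR-132 (chr11:75173723-75173741, plus strand) and miR-212 (chr11:75173443-75173463, plus strand) lie in an intron of the noncoding transcript 1700016P03Rik, with window starts 280 bases apart. miR-147 (chr2:122640850-122640869, plus strand) lies in the 3′ UTR of AA467197, also called Nmes1.

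Reads of annotated loci summed to between 14383852 and 35244119 per library, with both controls deeper than both cadmium libraries. The test, edgeR's quasi-likelihood test with Benjamini-Hochberg adjustment, took in 276 loci that every library listed with reads from the same hairpin arm. It called 40 loci at an adjusted p under 0.05, 14.5% of those tested, with 22 above and 18 below control. DESeq2 size factors gave 21 above and 27 below, total counts 57 and 8, upper quartile scaling 50 and 9, and totals freed of dominant loci 38 and 14. The number of calls was 104 without control 1, 121 without control 2, 8 without cadmium 1 and 9 without cadmium 2. Each of these 4 fits has a group of 1 library, which is assumed to vary like the pair in the other group. Levels are in CPM, counts per 1000000 reads after TMM normalization, which adjusts totals for very abundant loci. Gene copies such as miR-16-1 and miR-16-2 (means of 131068 and 131130 CPM over the 4 libraries) are listed apart with nearly the same count. Their reads thus enter the totals behind CPM and shares of annotated reads more than once.

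None of the 5 miRNAs listed in all libraries passed the test (0 of 5 against 14.5% of all loci), and 1, miR-146b, had an unadjusted p under 0.05, as did 28.6% of all loci. miR-146b and miR-155 had lower levels in both cadmium libraries than in both controls, and miR-132 had higher ones. miR-21a and miR-146a overlapped between the groups. Non-overlapping groups were found in 3 of the 5, against 69.6% of all loci, so that separation is a common feature of these 4 libraries. Shares over all loci count gene copies of the same mature sequence separately. With 1 locus per sequence, 211 loci were tested. DESeq2 called 1 of the 5, miR-146b, and 15.9% of all loci.

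**Figure D1:**
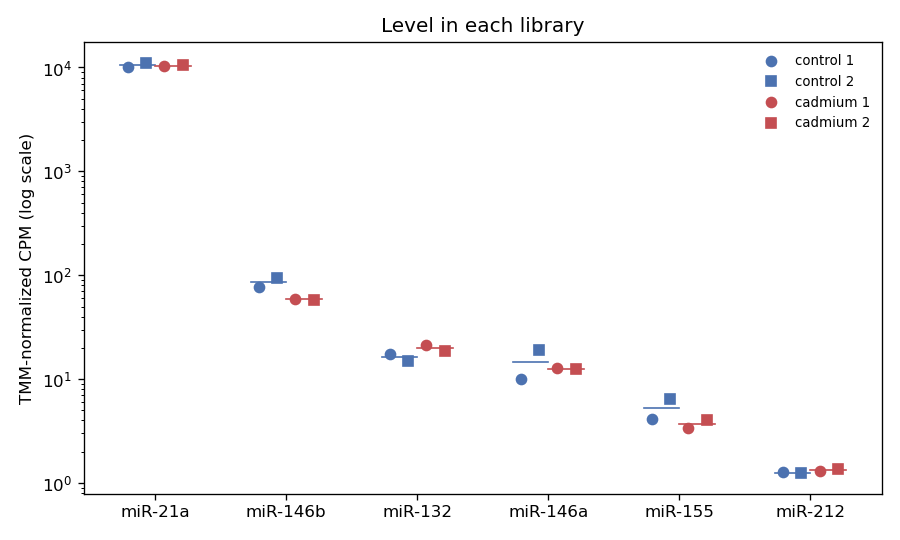
TMM-normalized CPM on a log axis of the 5 tested miRNAs and of miR-212, 1 point per library, with lines at the group means (n = 2 libraries each). miR-21a stands near 10475 CPM, far above miR-146b at 72.3 CPM and miR-155 at 4.47 CPM, and the 2 controls of miR-146a (10.1 and 19.0 CPM) lie on both sides of the cadmium libraries.

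The order of mean level was miR-21a, miR-146b, miR-132, miR-146a and miR-155, at 10475, 72.3, 18.1, 13.6 and 4.47 CPM over the 4 libraries. They ranked 16, 84, 116, 120 and 179 among the 276 loci, where gene copies with the same reads take separate places. The order was the same per base of the counted window, at 455, 3.14, 0.950, 0.617 and 0.203 CPM per base. miR-132 and miR-146a are neighbours whose library values overlapped, and the other neighbours did not overlap. Different miRNAs can be captured with different efficiency, so levels of different miRNAs are set side by side only as read counts.

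miR-21a, known for repressing the tumour suppressor Pdcd4 and for its rise in activated myeloid cells, was counted 317912 times in control 1, 248091 times in control 2, 165292 times in cadmium 1 and 178513 times in cadmium 2. These were 10117 and 11060 CPM in the controls and 10217 and 10503 CPM with cadmium. Both cadmium libraries lay between the 2 controls. Control libraries averaged 10589 ± 666 CPM and cadmium libraries 10360 ± 202 CPM (SD, n = 2 each), a log2 fold change of -0.03 ± 0.10 (SE). Its edgeR adjusted p = 0.810, and the 95% interval ran from -0.27 to 0.20.

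The direction of miR-21a depended on scaling. As a plain share of annotated reads it was 0.902% in control 1, 1.01% in control 2 and 1.15% in each cadmium library, without overlap, and the log2 fold change with total counts was 0.27 (edgeR adjusted p = 0.0902, range over 17 alternatives 0.0902 to 0.979). Counting error was small, the widest 95% Wilson interval being 11437 to 11547 reads per 1000000 annotated reads in cadmium 1. The median of all loci moved with the scaling too, from 0.08 in the test to 0.38 with total counts. Relative to that median miR-21a stood at -0.11 in the test and at -0.11 with total counts. In these libraries miR-486, the most abundant red cell miRNA measured here, was lower with cadmium (-0.60 ± 0.07, edgeR adjusted p = 0.00184). miR-486 and miR-3107, listed with nearly the same level (means of 210178 and 209329 CPM), both enter the total of annotated reads.

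miR-146b, encoded apart from miR-146a and sharing its seed, was counted 2436 times in control 1, 2125 times in control 2, 948 times in cadmium 1 and 991 times in cadmium 2. These were 77.5 and 94.7 CPM in the controls and 58.6 and 58.3 CPM with cadmium. The cadmium libraries lay close together and below both controls. The means were 86.1 ± 12.2 and 58.5 ± 0.206 CPM (SD, n = 2 each), a log2 fold change of -0.56 ± 0.22 (SE), or 1.47-fold lower. The unadjusted p was 0.0342 in edgeR's fit and the adjusted p = 0.126, so it did not pass. The 95% interval, before adjustment, was -1.06 to -0.05.

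The lower value of miR-146b kept its sign in all 17 alternatives, from -0.70 to -0.26, with adjusted p-values of 3.88e-06 to 0.644. It passed with DESeq2 (-0.65, adjusted p = 0.0196). In edgeR's fit it was -0.70 without control 1, where the adjusted p was lowest, and -0.41 without control 2. In both fits the spread between libraries came from the cadmium pair alone, and the test pooled that spread over loci. These 2 fits called 37.7% and 44.2% of all loci.

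miR-146a, the NF-kappaB-induced feedback miRNA, was counted 317 times in control 1, 426 times in control 2, 207 times in cadmium 1 and 211 times in cadmium 2. These were 10.1 and 19.0 CPM in the controls and 12.8 and 12.4 CPM with cadmium. The 2 controls stood on either side of the cadmium pair. The means were 14.5 ± 6.29 and 12.6 ± 0.269 CPM (SD, n = 2 each), with a log2 fold change of -0.20 ± 0.32 (SE, edgeR adjusted p = 0.682, 95% interval -0.94 to 0.54).

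The sign of miR-146a depended on which control was used. Its log2 fold change was 0.32 without control 2 (edgeR adjusted p = 0.174) and -0.59 without control 1 (edgeR adjusted p = 0.00532, range over 16 alternatives 0.00532 to 0.973). In both fits the spread came from the cadmium pair alone, pooled over loci. It was also above 0 with total counts, at 0.09, and with the upper quartile, at 0.04. The 2 controls differed 1.88-fold in miR-146a CPM, at percentile 87.7 of the absolute log2 differences between the controls over all loci, and by more than the counting error of 5.62% and 4.85% of the counts. The 2 cadmium libraries differed 1.03-fold.

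miR-155, cut from the B-cell integration cluster transcript and raised in activated lymphocytes and macrophages, was counted 129 times in control 1, 143 times in control 2, 55 times in cadmium 1 and 68 times in cadmium 2. These were 4.11 and 6.37 CPM in the controls and 3.40 and 4.001 CPM with cadmium. Both cadmium values were below both controls, by a narrow margin for control 1. The means were 5.24 ± 1.60 and 3.70 ± 0.425 CPM (SD, n = 2 each), a log2 fold change of -0.49 ± 0.28 (SE, edgeR adjusted p = 0.326, 95% interval -1.15 to 0.16).

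With so few reads, counting error alone was 13.5% of the count in cadmium 1 and 12.1% in cadmium 2, so the margin between control 1 and cadmium 2 was not detectable at this depth. The 2 controls differed 1.55-fold. Without control 1 the log2 fold change of miR-155 was -0.78 (edgeR adjusted p = 0.00716, range over 16 alternatives 0.00716 to 0.715), and without control 2 it was -0.15 (edgeR adjusted p = 0.666), again with the spread from the cadmium pair alone. The sign was negative in all 16.

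miR-132, a miRNA induced by the transcription factor CREB and by innate immune stimuli, was counted 549 times in control 1, 334 times in control 2, 341 times in cadmium 1 and 319 times in cadmium 2. These were 17.5 and 14.9 CPM in the controls and 21.1 and 18.8 CPM with cadmium. Both cadmium values were above both controls. The means were 16.2 ± 1.83 and 19.9 ± 1.63 CPM (SD, n = 2 each), a log2 fold change of 0.30 ± 0.23 (SE, edgeR adjusted p = 0.396, 95% interval -0.23 to 0.83). It stayed positive in all 17 alternatives, from 0.19 to 0.60, and passed in none of them (adjusted p 0.0625 to 0.808).

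miR-212, from the same cluster as miR-132, was counted 40 times in control 1, 28 times in control 2, 21 times in cadmium 1 and 23 times in cadmium 2, between 1.25 and 1.35 CPM in all 4. Its log2 fold change was 0.07 ± 0.30 (SE, edgeR adjusted p = 0.849).

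miR-147, raised by Toll-like receptor signals in macrophages, was listed in control 2 alone, with 11 reads. That is 0.447 reads per 1000000 annotated reads, with a 95% Wilson interval of 0.249 to 0.80 that covers counting error only. No list held a count under 5, so absence from a list is not a measured 0. At control 2's share, 15.7 reads would have fallen in control 1, 6.43 in cadmium 1 and 6.95 in cadmium 2. The last 2 lie close to the lowest count listed, so no difference with cadmium is detectable for miR-147 at this depth. Control 1 did not list it either, although 15.7 lies well above that lowest count, so the 2 controls were not alike in listing it.

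**Figure D2:**
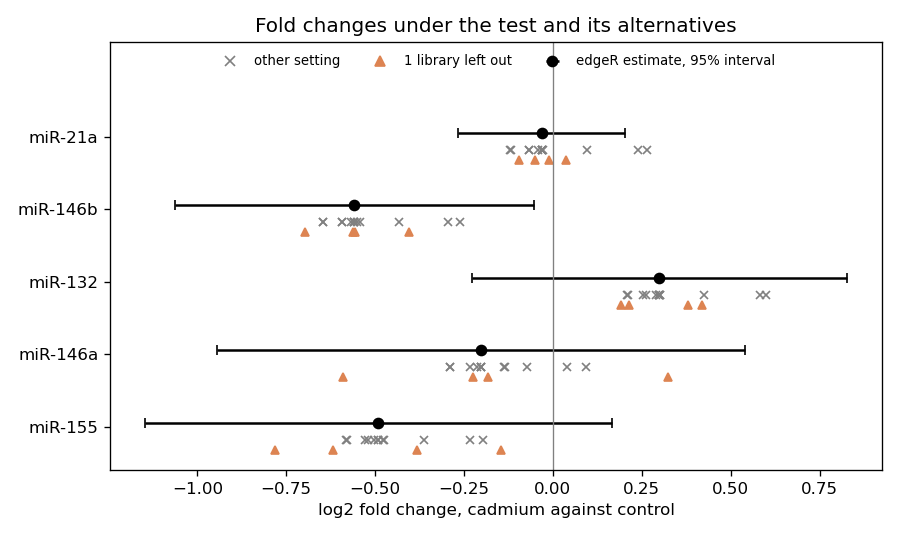
Log2 fold changes of the 5 tested miRNAs, cadmium against control, with the edgeR estimate and its unadjusted 95% interval (black), other processing settings (crosses) and fits that leave out 1 library (triangles). miR-146b (-0.56) and miR-155 (-0.49) are left of 0 and miR-132 (0.30) right of 0 in every setting run, while miR-21a and miR-146a cross 0.

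A ratio of 2 miRNAs within a library does not depend on how libraries are scaled. With 2 libraries against 2, the exact two-sided permutation test over libraries cannot give a p under 0.333, so no ratio could pass a threshold of 0.05. All 10 pairs of the 5 miRNAs were compared, and the lowest exact permutation p was 0.333, or 0.476 adjusted over the 10 pairs. Groups did not overlap in 7 of 10 ratios, against 59.8% of the ratios of all pairs of loci.

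miR-146a to miR-155 sets the NF-kappaB brake against the pro-inflammatory miRNA. It was 2.46 in control 1, 2.98 in control 2, 3.76 in cadmium 1 and 3.10 in cadmium 2. Both cadmium ratios were above both controls, with control 2 and cadmium 2 close together. The log2 ratio averaged 1.44 ± 0.20 in the control and 1.77 ± 0.20 in the cadmium libraries (SD, n = 2 each), a difference of 0.34, or 1.26-fold (exact permutation p = 0.333). The exact 95% intervals from counting error ran from 2.46 to 3.63 in control 2 and from 2.35 to 4.14 in cadmium 2, so those libraries could not be separated at this depth. The difference was 0.20 without control 1 or without cadmium 1, and 0.48 without control 2 or without cadmium 2.

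Within the shared-seed pair, miR-146b to miR-146a was 7.68 in control 1, 4.99 in control 2, 4.58 in cadmium 1 and 4.70 in cadmium 2. Control 1 was the high library, and control 2 lay close to the cadmium pair. The log2 ratio averaged 2.63 ± 0.44 in the control and 2.21 ± 0.03 in the cadmium libraries (SD, n = 2 each), a difference of -0.42 (exact permutation p = 0.333). It was -0.11 without control 1 and -0.73 without control 2.

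miR-21a to miR-146b separated the groups with little spread inside each. It was 131 in control 1, 117 in control 2, 174 in cadmium 1 and 180 in cadmium 2. The log2 ratio averaged 6.95 ± 0.11 in the control and 7.47 ± 0.03 in the cadmium libraries (SD, n = 2 each), a difference of 0.52, or 1.44-fold (exact permutation p = 0.333). It ranged from 0.44 to 0.60 when each library was left out.

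miR-146b to miR-132 had the largest difference of the 10. It was 4.44 in control 1, 6.36 in control 2, 2.78 in cadmium 1 and 3.11 in cadmium 2. The log2 ratio averaged 2.41 ± 0.37 in the control and 1.56 ± 0.11 in the cadmium libraries (SD, n = 2 each), a difference of -0.85, or 1.81-fold lower (exact permutation p = 0.333). Leaving out each library gave -1.11 to -0.59.

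The ratios of miR-21a and miR-132 to miR-155 were higher with cadmium by 0.44 and 0.77 on the log2 scale and that of miR-21a to miR-132 was lower, at -0.33, all 3 without overlap. Their size depended on the control used: without control 1 they were 0.70, 1.21 and -0.51, and without control 2 they were 0.19, 0.34 and -0.15, in the same order. Without either cadmium library they ranged from 0.34 to 0.54, from 0.57 to 0.98 and from -0.44 to -0.23. miR-146b to miR-155, with a difference of -0.08, overlapped between groups, as did miR-132 to miR-146a (0.44) and miR-21a to miR-146a (0.11). The miR-132 to miR-146a ratio was 1.73 in control 1 and 0.784 in control 2, with the cadmium libraries at 1.65 and 1.51. The controls were thus widely spaced in the ratios of miR-146b, miR-132 and miR-21a to miR-146a, and less so in that of miR-146a to miR-155, since both were higher in control 2.

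**Figure D3:**
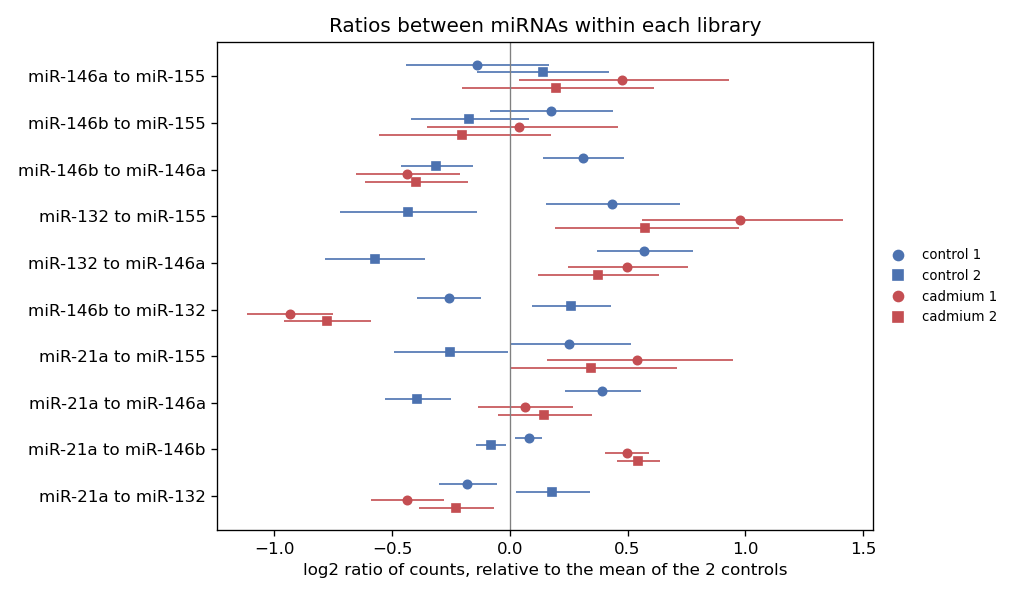
Log2 ratio of read counts for all 10 pairs of the 5 miRNAs in each library, relative to the mean of the 2 controls, with bars for exact 95% intervals of counting error. In miR-21a to miR-146b the cadmium libraries (174 and 180) are apart from the controls (131 and 117), while in miR-146b to miR-155 the 4 libraries mix.

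Whole blood mixes cell types, and in such bulk samples fewer cells of a type and less RNA per cell cannot be told apart. The lymphocyte markers miR-150, miR-181a-1 and miR-181b-1 summed to 4401 CPM in control 1, 3299 in control 2, 2220 in cadmium 1 and 2222 in cadmium 2, and 1 of 3, miR-181a-1, was called lower. Of the red cell markers, 2 of 3, miR-486 and miR-144, were called lower, and miR-16-1 was not. Among all loci tested, 6.52% were called lower. The 3 summed to 392921 to 411242 CPM in controls and 299955 to 314688 CPM with cadmium. The myeloid markers miR-23a and miR-27a summed to 215 to 271 CPM in controls and 282 to 329 CPM with cadmium, but neither was called. miR-27a overlapped, at 240 and 182 CPM in controls and 239 and 209 CPM with cadmium. miR-23a stood at 31.0 and 33.5 CPM in controls, 43.3 in cadmium 1 and 119 in cadmium 2. Markers of platelets and endothelium summed to 191 to 256 CPM in controls and 190 to 212 CPM with cadmium. No tested marker was near 0, and the part of these markers in the values of the inflammation miRNAs was not tested. miR-223 and miR-451a, also marker names, are not analysed here.

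Set against miR-150, a miRNA of mature lymphocytes, miR-146b no longer separated the groups. Per 1000 reads of miR-150 it stood at 390 in control 1, 449 in control 2, 425 in cadmium 1 and 411 in cadmium 2, with a log2 difference of -0.0033 (exact permutation p = 1). miR-155 stood at 20.7 and 30.2 per 1000 in the controls and at 24.7 and 28.2 with cadmium, also overlapping. miR-21a was higher per miR-150 in both cadmium libraries, at 74089 and 73949 per 1000 against 50947 and 52406. miR-132 was higher too, at 152.8 and 132.1 against 88.0 and 70.6 per 1000. Groups were apart in 2 of 5 ratios to miR-150, against 74.2% of all other loci.

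Set against miR-142, which all blood lineages express, miR-146b was lower with cadmium (9.92 and 11.5 per 1000 in cadmium libraries 1 and 2, against 13.0 and 17.2 in the controls) and miR-132 was higher (3.57 and 3.71 with cadmium, against 2.93 and 2.70 in the controls). The other 3 overlapped, so 2 of 5 were apart, against 59.6% of all other loci. Against miR-16-1, abundant in red cells, miR-21a was level, at 76.9 and 82.4 per 1000 in controls and 79.9 and 80.3 with cadmium. miR-146b, miR-155 and miR-132 were apart in that ratio, 3 of 5 against 68.4%. miR-16-1 itself changed little (-0.04 ± 0.07, SE, edgeR adjusted p = 0.706), unlike the red cell markers miR-486 and miR-144. Ratios to miR-486 or miR-144 were not taken. The lowest exact permutation p over these 15 ratios was 0.333, or 0.714 adjusted. Another denominator was the summed reads of miR-142 and the lymphocyte and myeloid markers. Per 1000 of these, miR-146b overlapped, at 7.29 and 10.5 in controls and 6.97 and 7.66 with cadmium. Only miR-132 stayed apart, and the share of all loci apart with this denominator was not taken. The log2 difference moved from 0.04 with miR-142 to 0.26 for miR-21a, and from 0.37 to 0.59 for miR-132.

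The loci most like each member were taken as those of other sequence at the smallest Euclidean distance in centred log2 CPM over the 4 libraries, a description over 4 points from shared libraries. miR-21a was nearest to miR-16-2 (distance 0.07) and miR-140 (0.10), both with nearly level values, against a median distance of 0.54 to all loci. miR-146b was nearest to miR-150 (0.15), which had 199 CPM in control 1, 211 in control 2, 138 in cadmium 1 and 142 in cadmium 2, and to miR-34a (0.15), which stood at 0.810 CPM. miR-146a was nearest to miR-449c (0.18) and to miR-19a (0.23), whose controls were also far apart, at 1277 and 2926 CPM. miR-155 was nearest to miR-1945 (0.13) and miR-669d (0.23), and miR-132 to miR-1929 (0.13) and miR-5113 (0.14), which had low counts apart from miR-5113 at 20.5 CPM.

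A wider list of 31 miRNA names linked to innate immune and NF-kappaB signalling had 23 tested loci, the 5 above included. Of these 0 rose and 0 fell in edgeR's test, against 7.97% called higher and 6.52% called lower among all loci, and 6 of 23 had an unadjusted p under 0.05, against 28.6% of all loci. The median log2 fold change of the list was 0.16, against 0.08 for all loci, and 14 of 23 loci did not overlap between groups, against 69.6% of all loci. Values were positive in 17 of 23 loci and negative in 6, while 130 of all 276 loci were negative. Some of the 17 are gene copies with the same mature sequence, and with 1 locus per sequence 13 of 19 were positive. The 276 loci hold such copies too, and their signs were not counted with 1 locus per sequence. Of the 6 negative ones 4 were miR-21a, miR-146a, miR-146b and miR-155. The other 2 were miR-125a (-0.15 ± 0.34) and miR-301a (-0.41 ± 0.15, SE).

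After miR-21a, the most abundant of the list were miR-301a at 1588 CPM, miR-221 at 1458, miR-29a at 516 and miR-222 at 354. miR-221 and miR-222, made from a shared cluster and known for targeting the cell cycle inhibitor p27, had log2 fold changes of 0.22 ± 0.14 and 0.45 ± 0.16 (SE, edgeR adjusted p = 0.352 and 0.0957). miR-29a had 0.19 ± 0.16 (edgeR adjusted p = 0.433) and miR-301a -0.41 ± 0.15 (edgeR adjusted p = 0.0979). The lowest adjusted p of the list was 0.0781, shared by miR-29b-1 and miR-29b-2, which carry the same reads and stood at 16.7 CPM in control 1, 26.8 in control 2, 36.5 in cadmium 1 and 41.1 in cadmium 2.

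**Figure D4:**
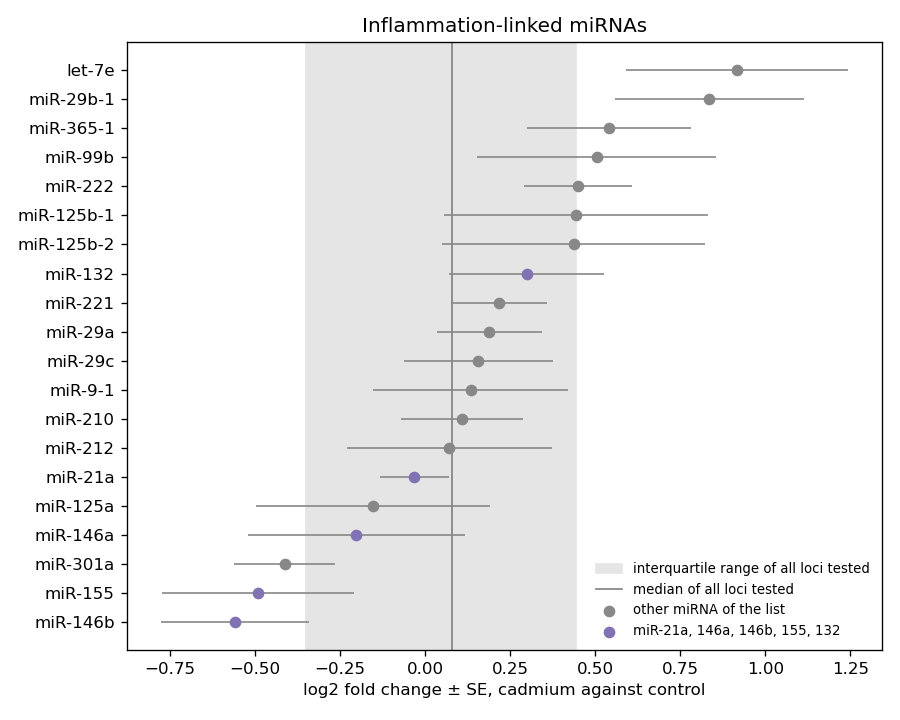
Log2 fold change ± SE, cadmium against control, of the tested inflammation-linked miRNAs, with copies of identical count drawn once, with the interquartile range of all 276 loci (grey band) and their median of 0.08 (line). miR-146b (-0.56), miR-155 (-0.49) and miR-301a (-0.41) lie at the low end, and miR-29b-1 (0.83) and let-7e (0.92) at the high end.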

How the data were processed

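The deposited files, 1 per library, give counts of mature reads per locus, whole numbers without normalization, per the file headers. Total RNA was isolated with the miRNeasy kit, per the labels' protocols. Per the submitters' processing notes, DESeq, Bowtie 0.12.2 and the mm10 build were used, with no role stated for either tool. Strand use in counting, mismatches allowed and read length limits are not given either, so reads of miR-146a and miR-146b that end early may be split in an unknown way.

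A name and its star form with the same locus and count were merged, and an unnamed total row in cadmium 1 was left out. In control 2 the sequences did not belong to their rows (the length fitted in 162 of 693), so they were not used. Of 289 loci listed in all 4 libraries, 277 had windows sharing at least 10 bases and entered, and filterByExpr removed 1. The test was edgeR 4.0.16 in R 4.3.3 (quasi-likelihood, TMM, two-sided, group as the only term, 2 residual degrees of freedom). It moderates the spread of each locus by that of all loci. Its p-values and intervals thus rest on more degrees of freedom than those 2. Standard errors are the log2 fold change over the square root of F. Ratios used raw counts and SciPy 1.17.1, and figures matplotlib 3.10.9. Intervals are 95% and cover counting error only, except those of fold changes.

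Groups follow the labels. Members and lists were chosen with earlier results of these data known. Named miRNAs are the members, the 5 most abundant of the wider list with any past the threshold, the cell markers and the 2 loci most like each tested member. miR-212, let-7e, miR-29b, miR-125a, miR-486 and miR-181a-1 were named where a result turned on them. Alternatives were other scalings, filters, DESeq2 1.42.0, edgeR's exact test, limma 3.58.1 voom, a replicate block, each library left out, 1 locus per sequence, identical windows and unlisted loci as 4 reads.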

Additional observations from a re-analysis of the deposited data

How the results depend on the processing

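No value of the 5 miRNAs passed the test as reported. Against 40 loci called, total counts gave 65 and the replicate block 20, and leaving out 1 library gave 8 to 121. Scaling reversed miR-21a, to 0.27 with total counts, 0.24 with upper quartile scaling and 0.0951 with totals without dominant loci. It reversed miR-146a, to 0.0923 and 0.04045 under the first 2 of these scalings. Leaving out control 2 reversed both as well, to 0.0355 for miR-21a and 0.32 for miR-146a. The median of all loci moves with scaling as well, and relative to it miR-21a lay between -0.12 and -0.11 and miR-146a between -0.32 and -0.28 over the 5 scalings. DESeq2 called miR-146b at -0.65. Leaving out 1 library gave -0.0942 to 0.0355 for miR-21a, -0.59 to 0.32 for miR-146a, -0.70 to -0.41 for miR-146b, -0.78 to -0.15 for miR-155, 0.19 to 0.42 for miR-132, and 0.20 to 0.48 for the log2 ratio of miR-146a to miR-155. The cause of these changes was not tested. Replicate numbers do not pair the libraries as far as the labels say, and same-numbered libraries did not deviate together (correlation -0.0046 across 276 loci). With the replicate block the 5 fold changes kept their sign and none passed (miR-146b -0.55, miR-155 -0.48), and the paired exact permutation p of miR-146a to miR-155 was 0.5. The filter of a mean of 10 CPM leaves out miR-155, and identical windows leave out miR-146a. Depth limits miR-155, miR-212 and miR-147, and the cadmium libraries differed by less than counting error in miR-146b and miR-146a.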
